A study of Saccharomyces cerevisiae with 8 samples.

Results

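Along a line of equal growth inhibition between cycloheximide and LiCl, the first LiCl enters the cultures at isobole points 2 and 3. Those 2 mixtures, the ones with the least LiCl of the 5 sequenced, are described here against the culture that received cycloheximide only (point 1), which makes 3 of the 8 libraries of the series. A gene counted as changed alike when its level differed at least 2-fold in the same direction at both points, among nuclear genes with a mean of at least 20 reads in their coding sequence (CDS) over the 3 libraries.

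All libraries came from Saccharomyces cerevisiae strain BY4741 grown as liquid cultures in rich YPD medium. The mixtures at points 2 and 3 held both drugs, the culture at point 1 held cycloheximide alone, the culture at point 7 held LiCl alone, and the drug-free culture held neither. Each of the 7 drugged cultures was set to grow at 50% inhibition, and the drug-free culture was started from fewer cells so that all were harvested at a like density. Total RNA was depleted of rRNA and sequenced as single reads of 50 bases. There was 1 library for each condition, so no value below has a replicate. Both mixtures are compared with the same cycloheximide library, and any peculiarity of that library enters both changes. Cycloheximide was lowered as LiCl was added, so the effect of added LiCl and that of less cycloheximide cannot be told apart.

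Cycloheximide binds the large ribosomal subunit and blocks translation elongation. LiCl brings cationic and osmotic stress, and lithium ions inhibit the phosphatase Hal2, which removes a by-product of sulfate assimilation, as well as phosphoglucomutase. Yeast has few introns, and a large share of them lie in ribosomal protein (RP) genes, most of which are kept as pairs of near-identical copies from an ancient genome duplication.

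Between 13693401 and 28042336 reads per library fell in nuclear CDS, with 13693401 at point 2, 17673770 at point 3 and 23522386 in cycloheximide only. Levels are given as CPM, CDS read counts per 1000000 after scaling by the trimmed mean of M-values (TMM), whose factors were 0.995 to 1.05 in these 3 libraries. Of the markers of BY4741, URA3 had 0 reads in every library, LEU2 had 1 read and MET17 had 2 reads over all 8 libraries, while the partly deleted HIS3 had 347 to 1266 reads per library. Of 6669 nuclear CDS features, 6353 passed the filter. The median log2 change was 0.00 at point 2 and -0.01 at point 3, and 92.1% of genes at point 2 and 94.3% at point 3 lay within 1.5-fold of their level in cycloheximide only. The counting error of a single log2 change had a median standard error (SE) of 0.0993, and SEs given below cover counting error only. Because the RNA came from whole cultures, a change in all cells and a larger change in a fraction of them cannot be told apart.

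Genes such as GRE1, SIP18, THI4, TKL2 and PUT4 had 2.75 to 4.84 times their level in cycloheximide only in the first mixtures. In all, 27 genes rose at both points, 0.425% of those tested, and 8 genes fell at both, 0.126% of those tested. A further 14 genes rose at point 2 alone and 18 at point 3 alone, while 32 fell at point 2 alone and 17 at point 3 alone, and 0 genes changed 2-fold in opposite directions. Just inside the limit stood AQY2 with log2 changes of 1.18 and 1.03 at points 2 and 3, and just outside it stood PIR3 with 0.98 and 1.39. On the falling side, MUP3 was just inside with -1.36 and -1.01, and DIA1 was just outside with -1.15 and -0.98.

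**Figure D1:**
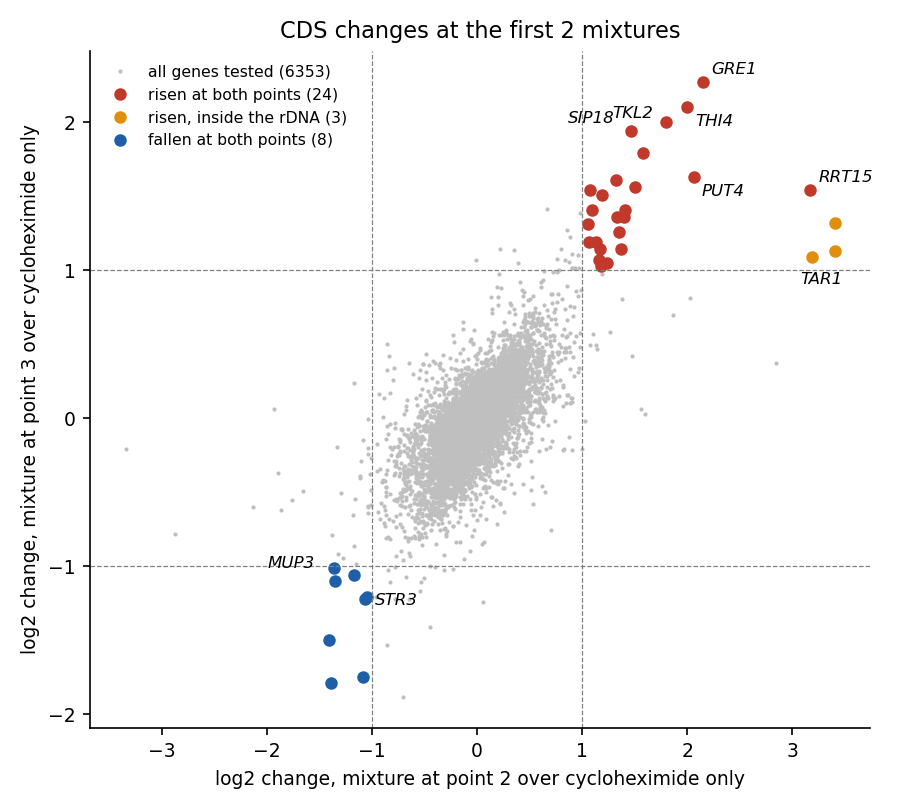
Log2 change of the CDS level in the mixture at point 2 (x axis) and at point 3 (y axis), each over cycloheximide only, for the 6353 genes tested (grey) and the 27 risen and 8 fallen genes (coloured). Both axes share the cycloheximide library. The 3 features inside the rDNA lie far to the right, with rises of 9.12-fold to 10.6-fold at point 2 and 2.13-fold to 2.5-fold at point 3.

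GRE1 and SIP18 encode hydrophilins, small hydrophilic proteins made under osmotic stress and desiccation. GRE1 (chrXVI:128632-129138, minus strand) had 30.9 CPM at point 2 and 33.7 CPM at point 3, against 6.95 CPM in cycloheximide only. Its log2 changes of 2.15 (SE 0.13) and 2.27 (SE 0.12) made it the gene with the largest rise held at both points. SIP18 (chrXIII:611016-611255) had 19.4 and 27.1 CPM at points 2 and 3, against 7.03 CPM in cycloheximide only. Both genes then returned along the isobole. With no drug GRE1 stood at 2.29 CPM, and at points 1 to 7 it had 6.95, 30.9, 33.7, 33.4, 11.5, 4.54 and 5.15 CPM. SIP18 stood at 1.3 CPM with no drug and had 7.03, 19.4, 27.1, 26.5, 7.00, 1.92 and 1.57 CPM at points 1 to 7. The level in the culture with LiCl alone was thus below that of cycloheximide alone for both hydrophilin genes, and the mixtures at points 2, 3 and 4 stood above all others.

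Of the 31 genes of the NAD and thiamine list, 6 were called higher and 0 lower in edgeR's quasi-likelihood test over all genes, beside 2.57% and 3.45% of all genes. The list as a whole had medians of 0.15 and 0.06, with 15 genes higher and 7 lower at both points. THI4, which makes the thiazole ring of thiamine, had 39.5 CPM at point 2 and 42.1 CPM at point 3, against 9.82 CPM in cycloheximide only. Its level was 42.9 CPM at point 4 and 12.8 CPM at point 5, and it was 2.21 CPM in LiCl only and 2.37 CPM with no drug. SNZ2 and SNZ3, copies of a family that takes part in vitamin B6 and thiamine synthesis, had log2 changes of 1.41 and 1.41 (SNZ2) and of 1.35 and 1.26 (SNZ3) at points 2 and 3. Only 22.9% of the 50-base windows of either copy are unique in the genome, and reads that match both copies were counted for each. THI7, the thiamine transporter, had 49.4 and 45.4 CPM at points 2 and 3, against 24.9 CPM in cycloheximide only. PHO3, an acid phosphatase that releases thiamine from its phosphate, had 153 and 156 CPM at points 2 and 3, against 84.3 CPM in cycloheximide only.

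Minor isoenzymes of the pentose phosphate pathway were also among the risen genes. TKL2, the minor transketolase, had 52.5 CPM at point 2 and 60.2 CPM at point 3, against 15 CPM in cycloheximide only. GND2, the minor 6-phosphogluconate dehydrogenase, had 28.0 and 27.2 CPM at points 2 and 3, against 12.4 CPM in cycloheximide only. NQM1, a copy of the transaldolase gene TAL1, had 78.9 and 110 CPM at points 2 and 3, against 37.7 CPM in cycloheximide only. These were 3 of the 11 genes of the pathway examined, a set put together after the values were seen. Their main counterparts behaved otherwise: TKL1 had log2 changes of 0.09 and -0.11, TAL1 of -0.16 and -0.22, and GND1 of -0.28 and -0.35 at points 2 and 3, and in edgeR's quasi-likelihood test with Benjamini-Hochberg adjustment they had adjusted p = 0.993, 0.582 and 0.238. None of the other genes of the set passed that test. TKL2 overlaps the dubious reading frame YBR116C, which had 13.8 and 16.0 CPM at points 2 and 3, against 4.61 CPM in cycloheximide only, and reads in the shared stretch cannot be told apart.

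Among the other risen genes, PUT4, the high-affinity proline permease, had 16.1 CPM at point 2 and 11.9 CPM at point 3, against 3.84 CPM in cycloheximide only. RNR3, the damage-inducible large subunit of ribonucleotide reductase, had 30.5 and 31.3 CPM at points 2 and 3, against 12.1 CPM in cycloheximide only. Unlike the hydrophilin genes it was higher still at every later point of the isobole, and it reached 166 CPM in LiCl only, against 9.56 CPM with no drug. ALD3, a cytosolic aldehyde dehydrogenase, had 156 and 194 CPM at points 2 and 3, against 68.1 CPM in cycloheximide only, and only 59.6% of its windows are unique. PRY1, a secreted sterol-binding protein, had 142 and 169 CPM at points 2 and 3, against 68.4 CPM in cycloheximide only. NCA3, a protein of the SUN family, had 20.3 and 17.7 CPM at points 2 and 3, against 8.53 CPM in cycloheximide only. SPS100, a spore wall protein whose CDS overlaps the antisense transcript SUT169, had 17.2 and 21.1 CPM at points 2 and 3, against 6.87 CPM in cycloheximide only.

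The remaining risen genes were low in reads or shared their position with a neighbour. SPS1, a protein kinase of sporulation, PAU17, a seripauperin, NFG1 and YCL048W-A had means of under 100 reads, as did SNZ2 and SNZ3. PAU17 had 5.87 and 6.12 CPM at points 2 and 3, against 2.06 CPM in cycloheximide only, and SPS1 had 5.06 and 4.93 CPM, against 1.90 CPM. PRM10, a pheromone-regulated membrane protein, and YJL107C overlap each other, as do the aquaporin gene AQY2 and YLL053C. The log2 changes of these 4 genes lay between 1.03 and 1.37. YCL048W-A had the smallest support, with a mean of 35.7 reads and SEs of 0.38 and 0.35.

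**Figure D2:**
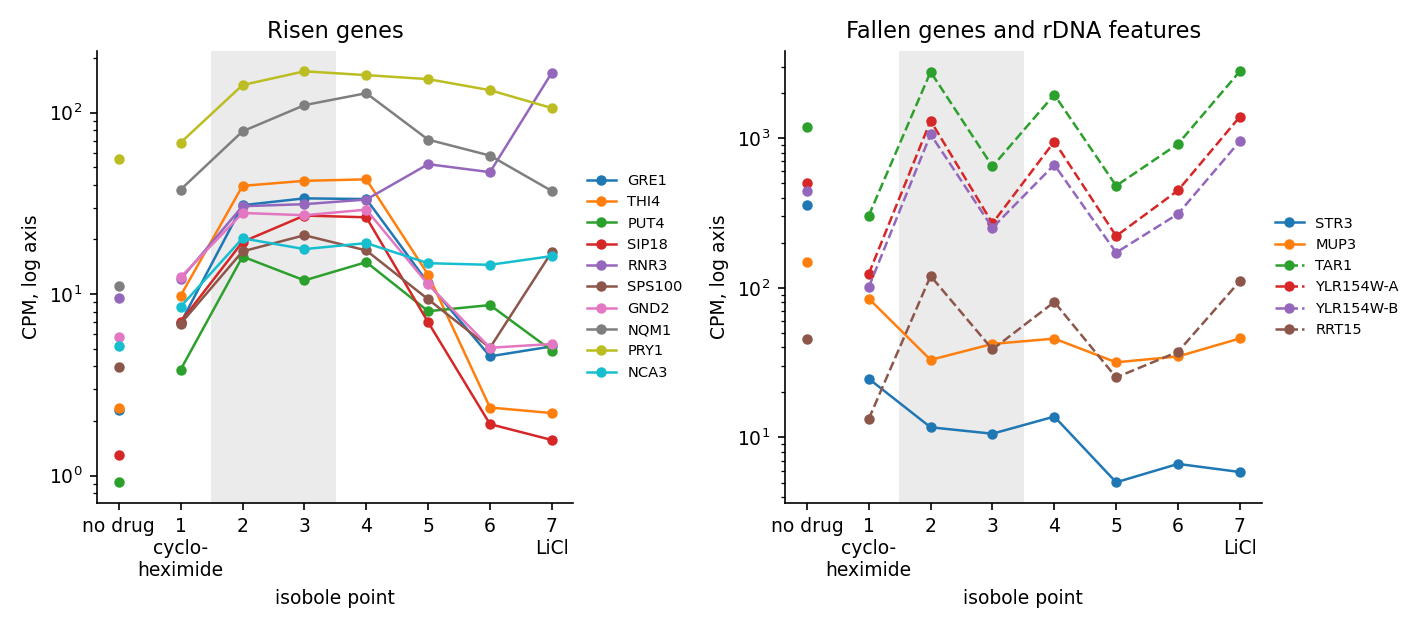
CDS level in CPM (log axis) in the drug-free culture and at isobole points 1 (cycloheximide only) to 7 (LiCl only), 1 library per position. The left panel holds 10 risen genes, and the right panel holds STR3 and MUP3, which fell, with 3 rDNA features and RRT15 as dashed lines. The shaded band marks points 2 and 3; GRE1, THI4 and SIP18 peak at points 2 to 4, RNR3 reaches 166 CPM at point 7, and the dashed lines share one up-and-down course.

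Of the 27 risen features, 3 lie inside the 25S rRNA gene of the rDNA and have no unique 50-base window. TAR1 had 2774 CPM at point 2 and 648 CPM at point 3, against 304 CPM in cycloheximide only. YLR154W-A had 1307 and 270 CPM, against 124 CPM, and YLR154W-B had 1061 and 252 CPM, against 101 CPM. Reads were counted without regard to strand, so reads of rRNA left after depletion cannot be told apart from reads of these frames. With no drug TAR1 stood at 1195 CPM, and at points 4 to 7 it had 1954, 481, 916 and 2800 CPM. RRT15, at chrXII:490406-490594, followed the same course, with 120 and 38.8 CPM at points 2 and 3, against 13.3 CPM in cycloheximide only, and 80.4, 25.2, 37.4 and 111 CPM at points 4 to 7. The part of leftover rRNA in these 4 rises was not tested. Without the 3 features inside the rDNA, 24 genes rose and 8 fell.

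The LiCl only and drug-free libraries took no part in choosing the risen genes. Between these libraries, 11.2% of all genes tested were at least 2-fold higher and 6.53% at least 2-fold lower. Of the 24 genes that rose outside the rDNA, 15 were at least 2-fold higher in LiCl only than with no drug and 0 were 2-fold lower. The median log2 change of the 24 was 1.2, beside 0.01 over all genes. RRT15, which followed the course of the rDNA features, was among the 15. The overlapping pairs given above were counted as separate genes. LiCl only and no drug also differ in growth inhibition, and 20 of the 24 already stood above no drug in cycloheximide only. Against cycloheximide only, a library used in choosing the genes, 6 of the 24 were at least 2-fold higher in LiCl only. By any amount, 14 were higher and 10 lower. For 18 of the 24, each of points 2, 3 and 4 was higher than each of points 1, 5, 6 and 7, a pattern shown by 279 of the 6353 genes tested; the choice of the genes uses points 1 to 3 and so fixes part of it. Relative to the drug-free culture, the median log2 level of the 24 genes was 0.95 at point 1, 2.21, 2.21, 2.1, 1.53 and 0.95 at points 2 to 6, and 1.2 at point 7. Between the 2 mixtures, 15 of the 24 were higher and 9 lower at point 3 than at point 2, and RRT15 alone differed 2-fold or more, with a log2 value of -1.62.

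The sequence before the start codon was searched for motifs of 7 groups of stress and nutrient regulators, on both strands over 500 bases. AGGGG, the stress response element bound by Msn2 and Msn4, was found before 13 of the 24 risen genes outside the rDNA (54.2%) and before 34.0% of all genes tested. It was found as well before 4 of the 8 fallen genes. In the larger sets called by edgeR's test it was found before 46.6% of the higher and 49.8% of the lower genes. The element was thus not particular to the genes that rose. The Hsf1 motif GAANNTTC was found before 5 of the 24 (20.8%) and before 19.4% of all genes, and TGACTC, bound by Gcn4, before 4 (16.7%) and 13% of all genes. CACGTG (Pho4 and Cbf1), CCGCGG (Pdr1 and Pdr3) and GAGGCTG (Crz1) were found before none of the 24, and before 5.98%, 3.07% and 3.15% of all genes. GGTGGCA (Rpn4) was found before 2 of them (8.33%) and 4.61% of all genes. The windows printed next were read from the R64 reference of RefSeq in the direction of the gene. They show the stress response element of 5 risen genes among those that hold it at least 2 times. In each window 1 element, or its reverse complement, is in capitals, and the NQM1 window holds another in lower case. A match describes the sequence and is no evidence of binding.
SIP18, chrXIII:610617-610643: cccttaagcctCCCCTaaatgctttcg
SPS100, chrVIII:379353-379379: gcaactagcatCCCCTtttagaaatgc
GND2, chrVII:1004314-1004340: taattgaggcgCCCCTaatttttttgg
PUT4, chrXV:989161-989187: gacgttttcaaCCCCTcgctatcatcg
NQM1, chrVII:581597-581623: tcttccatagtAGGGGcgaatgagggg

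Of the 8 fallen genes, only STR3 and MUP3 carry a gene name of their own, and both belong to methionine metabolism. STR3, cystathionine beta-lyase, which makes homocysteine, had 11.7 CPM at point 2 and 10.6 CPM at point 3, against 24.7 CPM in cycloheximide only. MUP3, a methionine permease of low affinity, had 33.0 and 42.2 CPM at points 2 and 3, against 84.8 CPM in cycloheximide only. In the culture with LiCl alone STR3 had 5.88 CPM, against 358 CPM with no drug, and MUP3 had 45.9 CPM, against 148 CPM with no drug. The levels in cycloheximide only lay between those of LiCl only and no drug for both genes. STR3 holds the Gcn4 motif 2 times before its start codon and MUP3 holds that motif and CACGTG, the site of Cbf1, which activates sulfur genes. These windows are shown because they belong to the only pair of fallen genes with a common role. The STR3 window holds the other Gcn4 motif of that gene in lower case.
STR3, chrVII:156385-156412: ggttatccggcTGACTCattctgactct
MUP3, chrVIII:26107-26134: gaggcctgcctGAGTCAaggggcaaaaa
MUP3, chrVIII:25768-25795: gcaaattcactCACGTGagggcgtgtgc

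The other 6 fallen features are short reading frames of 150 to 372 bases without an assigned function. YNL285W, YDR278C and YOR072W-B each overlap a tRNA gene. YNL285W had 13.3 and 12.5 CPM at points 2 and 3, against 35.4 CPM in cycloheximide only, and YDR278C had 7.71 and 5.83 CPM, against 20.2 CPM. YMR316C-A overlaps DIA1, which missed the limit narrowly. YDL241W had 7.63 and 8.27 CPM at points 2 and 3, against 17.2 CPM in cycloheximide only, and YOR293C-A had 4.04 and 3.62 CPM, against 8.41 CPM. Between LiCl only and no drug, 4 of the 8 fallen genes were at least 2-fold lower and 0 were 2-fold higher. Over all genes tested these shares were 6.53% and 11.2%.

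Reads from introns of small RNA genes were lower in the mixtures. Introns of tRNA genes together had 2060 CPM at point 2 and 1190 CPM at point 3, against 3060 CPM in cycloheximide only, and 2890 CPM with no drug. The introns of the snoRNA genes snR17a and snR17b had 37.4 and 35.0 CPM (snR17a) and 10.3 and 11.4 CPM (snR17b) at points 2 and 3, against 54.1 and 19.8 CPM in cycloheximide only. CDS length moved with the change too. For genes outside the RP list with a CDS under 300 bases the median log2 change was -0.21 at both points, and for those of 2400 bases and over it was 0.12 at point 2 and 0.17 at point 3. The part of RNA length or small RNA recovery in the falls of short CDS was not tested.

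**Figure D3:**
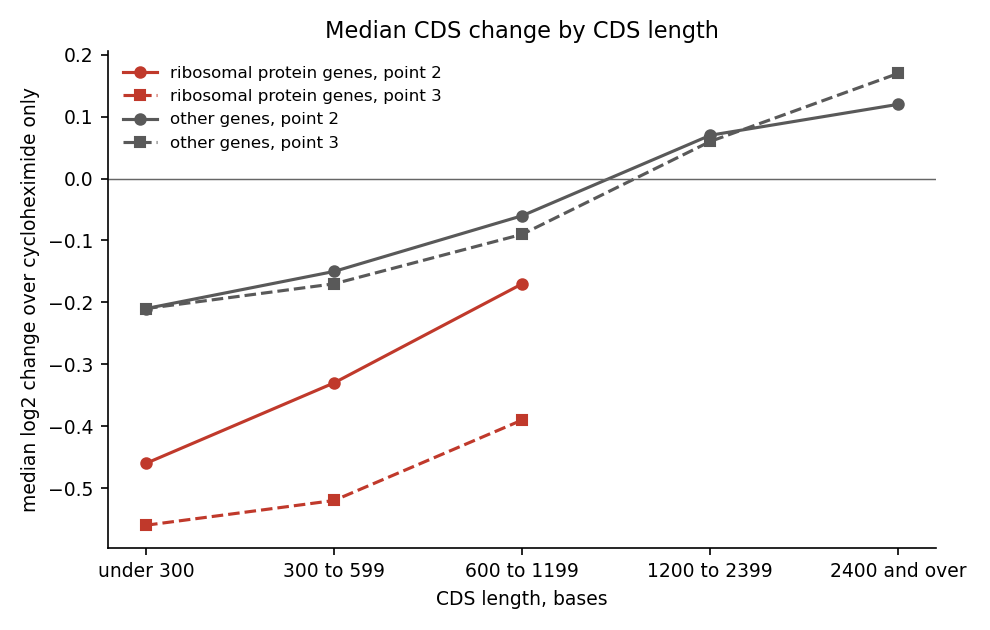
Median log2 change over cycloheximide only (y axis) by CDS length in bases (x axis), for RP genes (red) and all other genes tested (grey), at point 2 (circles, full lines) and point 3 (squares, dashed lines). Other genes run from -0.21 under 300 bases to 0.12 and 0.17 at 2400 bases and over, and RP genes lie below them in each of the 3 length classes that hold any.

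A fit across all genes, which set the 2 mixtures together against cycloheximide only, widened the view to smaller changes. In edgeR's quasi-likelihood test, 163 genes (2.57%) were higher and 219 (3.45%) lower at an adjusted p under 0.05, and each of them had the same sign at both points. All 27 risen and 8 fallen genes were among them. The mixtures are different conditions and not replicates, and the fit had 1 residual degree of freedom. Its spread was therefore pooled over all genes, and a gene's own difference between points 2 and 3 does not set its p-value: RRT15, at a log2 value of -1.62 between the points, had an edgeR adjusted p of 7.55e-42. DESeq2's Wald test on the same 3 libraries called 24 genes higher and 48 lower. The genes called lower by edgeR had a median CDS length of 432 bases, those called higher 1461 bases, and all genes tested 1131 bases. An RNA gene overlapped 9 of the genes called lower (4.11%), 7 of those called higher (4.29%) and 45 of all genes tested (0.708%). On the lower side these were 6 overlaps with tRNA genes and 3 with snoRNA genes, and on the higher side rRNA, antisense and other RNA genes.

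RP genes were lower throughout. All 137 RP genes were lower at both points than in cycloheximide only, which holds for 38.3% of all genes tested, and edgeR called 40 of them lower and 0 higher. Over all genes, edgeR called 3.45% lower and 2.57% higher. The median level of the RP genes was 0.804 of that in cycloheximide only at point 2 and 0.702 at point 3. As log2 changes these were -0.31 and -0.51, beside 0.00 and -0.01 over all genes. None reached 2-fold at both points. Reads that match both copies of a pair were counted for each copy, so the levels of near-identical copies are not independent. RPL29 had 867 CPM at point 2 and 770 CPM at point 3, against 1369 CPM in cycloheximide only (log2 changes -0.66 and -0.83, edgeR adjusted p = 0.000421). RPS22B, whose protein belongs to the small subunit, had 147 and 132 CPM at points 2 and 3, against 232 CPM in cycloheximide only (edgeR adjusted p = 6.2e-05). Its copy RPS22A had 708 and 589 CPM, against 839 CPM (edgeR adjusted p = 0.166), a smaller difference that did not pass the test. RPS9A had 197 and 156 CPM, against 220 CPM, and RPS9B 1294 and 1076 CPM, against 1525 CPM, and neither passed (edgeR adjusted p = 0.197 and 0.178). At point 3 the level was below that at point 2 in 135 of the 137. With no drug, RPL29 stood at 630 CPM, RPS22B at 123, RPS22A at 478, RPS9A at 110 and RPS9B at 790 CPM. For each of these genes the mixtures thus lay between cycloheximide only and the drug-free culture. This did not hold for every RP gene: RPS12 had 1273 and 1108 CPM at points 2 and 3, against 1308 CPM with no drug.

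RP genes are short, so the fall was read beside that of other genes of like length. In the class of 300 to 599 bases, 86 RP genes had medians of -0.33 and -0.52 at points 2 and 3, and 1162 other genes had -0.15 and -0.17. In the class of 600 to 1199 bases, 32 RP genes had -0.17 and -0.39, and 1738 other genes -0.06 and -0.09. Closest to the RP genes in length and level were 47 other genes with a CDS under 600 bases and a mean of at least 307 CPM, whose medians were -0.23 and -0.31. The 101 RP genes with an intron had medians of -0.32 and -0.51 and the 36 without had -0.31 and -0.52, a difference of at most 0.01 at either point. Core histone genes, also short, were lower at both points in 10 of 10, with medians of -0.32 and -0.29. HTA2 alone passed the edgeR test, as lower, which holds for 3.45% of all genes.

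Genes that build ribosomes went the other way at point 2. Of 73 ribosome biogenesis genes, 60 were higher at both points, beside 37.5% of all genes, 7 passed the edgeR test as higher, beside 2.57% of all genes, and none as lower, and the median log2 change was 0.33 at point 2 and 0.13 at point 3. NOG1, a GTPase of the large subunit's assembly, had 170 CPM at point 2 and 136 CPM at point 3, against 106 CPM in cycloheximide only. LTV1, needed for the small subunit's assembly and export, had 32.1 and 23.7 CPM, against 17.4 CPM. The median CDS length of the list was 1536 bases, and genes outside the RP list of 1200 to 2399 bases had medians of 0.07 and 0.06. The part of CDS length in the rise of the list was not tested. The ribosome biogenesis list was far higher in LiCl only than with no drug, with a median log2 change of 2.01. In cycloheximide only, NOG1 and LTV1 also stood above the drug-free culture, with 106 against 32.4 CPM and 17.4 against 8.03 CPM. The genes of RNA polymerase I and III had medians of 0.24 and -0.04 and no call.

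The cell wall list had the largest positive medians of the 30 lists, 0.37 at point 2 and 0.35 at point 3, and 13 of its 41 genes passed the edgeR test as higher and 0 as lower, beside 2.57% and 3.45% of all genes. The median CDS length of this list was 1455 bases, and genes outside the RP list of 1200 to 2399 bases had medians of 0.07 and 0.06. PIR3, a cell wall protein linked to glucan, had 48.4 CPM at point 2 and 64.3 CPM at point 3, against 24.5 CPM in cycloheximide only. CWP1, a mannoprotein, had 67.5 and 86.7 CPM, against 43.5 CPM. CHS2, the chitin synthase of the septum, had 63.6 and 64.6 CPM, against 37.4 CPM, and SED1, a major wall protein, had 900 and 981 CPM, against 549 CPM. Of the 13, SCW4, FLO1 and EXG1 were over 2-fold higher in LiCl only than with no drug, with log2 changes of 1.27, 1.19 and 1.14, and the other 10 were within 2-fold, among them PIR3 with 0.73 and CWP1 with -0.21.

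Nitrogen-regulated genes followed, with 7 of 36 called higher and 0 lower, beside 2.57% and 3.45% of all genes, and medians of 0.26 and 0.15. PUT1, proline oxidase, had 31.4 CPM at point 2 and 34.6 CPM at point 3, against 16.1 CPM in cycloheximide only, beside the proline permease PUT4 given above. MEP2, the ammonium permease, had 21.4 and 14.4 CPM, against 8.21 CPM, and GAP1, the general amino acid permease, had 52.8 and 33.1 CPM, against 24.0 CPM. Both permeases were nearer to cycloheximide only at point 3 than at point 2.

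Stress lists split within themselves. The general stress list had medians of -0.3 at point 2 and 0.06 at point 3, with 9 genes higher and 10 lower at both points. Of 26 general stress genes, 6 were called higher and 2 lower, and in this paragraph too the shares over all genes were 2.57% higher and 3.45% lower. HSP12, a membrane-protecting hydrophilic protein, had 995 and 1056 CPM at points 2 and 3, against 522 CPM in cycloheximide only, and YGP1, a secreted glycoprotein, had 303 and 404 CPM, against 167 CPM. GLC3, the glycogen branching enzyme, had 177 and 242 CPM, against 364 CPM, and GSY2, glycogen synthase, 222 and 336 CPM, against 389 CPM. Of 31 heat shock genes, 3 were called higher, among them SSA3 with 57.5 and 60.4 CPM, against 33.8 CPM, and 2 lower, HSP42 and HSP30. HSP30, which restrains the plasma membrane proton pump, had 49.2 and 61.2 CPM, against 111 CPM. Of 24 glycerol and osmotic stress genes, 3 were called higher: the 2 hydrophilin genes above and GRE2, a methylglyoxal reductase, with 44.5 and 41.6 CPM, against 28.4 CPM.

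Genes of ion and drug transport were read in lists of 16 to 19 genes, set beside 2.57% called higher and 3.45% called lower over all genes. In the monovalent cation list, 2 of 19 genes were called higher, both of them proton pumps of the plasma membrane: PMA1 had 5006 and 5063 CPM at points 2 and 3, against 3355 CPM in cycloheximide only, and PMA2 had 44.8 and 46.7 CPM, against 32.2 CPM. Reads that match several places were counted at each, and the part of PMA1 reads in the low PMA2 count was not tested. The median of the monovalent cation list was 0.11 at point 2 and 0.18 at point 3. Of its 19 genes, 14 were higher and 1 lower at both points, beside 37.5% and 38.3% of all genes. In the multidrug resistance list, 2 of 18 were called higher: the pump SNQ2, with 178 and 155 CPM against 120 CPM, and the polyamine transporter TPO1, with 43.4 and 36.2 CPM against 26.6 CPM. Of 16 calcineurin and calcium genes, the kinase gene CMK2 alone was called, with 91.9 and 102 CPM, against 169 CPM.

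Of 33 genes of sulfate assimilation and methionine, 5 were called lower and 0 higher, beside 3.45% and 2.57% of all genes, and the medians were -0.13 and -0.27. Beside STR3 and MUP3 these were MET6, methionine synthase, with 390 and 368 CPM at points 2 and 3, against 573 CPM in cycloheximide only, MET14, adenylylsulfate kinase, with 8.51 and 7.59 CPM, against 14.5 CPM, and the high-affinity permease MUP1, with 90.9 and 76.0 CPM, against 113 CPM. In LiCl only the list had a median log2 change of -1.71 from the drug-free culture. Of 28 phosphate genes, set beside the same shares, 3 were called higher and 2 lower: the acid phosphatase PHO5 had 245 and 244 CPM, against 140 CPM, while SPL2, an inhibitor of a low-affinity phosphate transporter, had 74.3 and 61.0 CPM, against 96.3 CPM. Of 52 genes of respiration and the TCA cycle, 5 were called lower, beside 3.45% of all genes, among them COX5B, a subunit of cytochrome c oxidase, with 37.1 and 36.5 CPM, against 60.9 CPM. HAP4, an activator of respiratory genes, was lower at point 2 than at point 3, with 61.4 and 109 CPM, against 126 CPM. Of the 52 genes, 24 have a CDS under 600 bases, as have CYC7, COX7, ATP20 and COX5B among the 5 called, and shorter genes were lower in general.

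In 8 of the 30 lists no gene was called, among them Gcn4-controlled amino acid synthesis, the unfolded protein response, the proteasome and the aminoacyl-tRNA synthetases. In 25 lists both medians were smaller than 0.3 on the log2 scale.

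**Figure D4:**
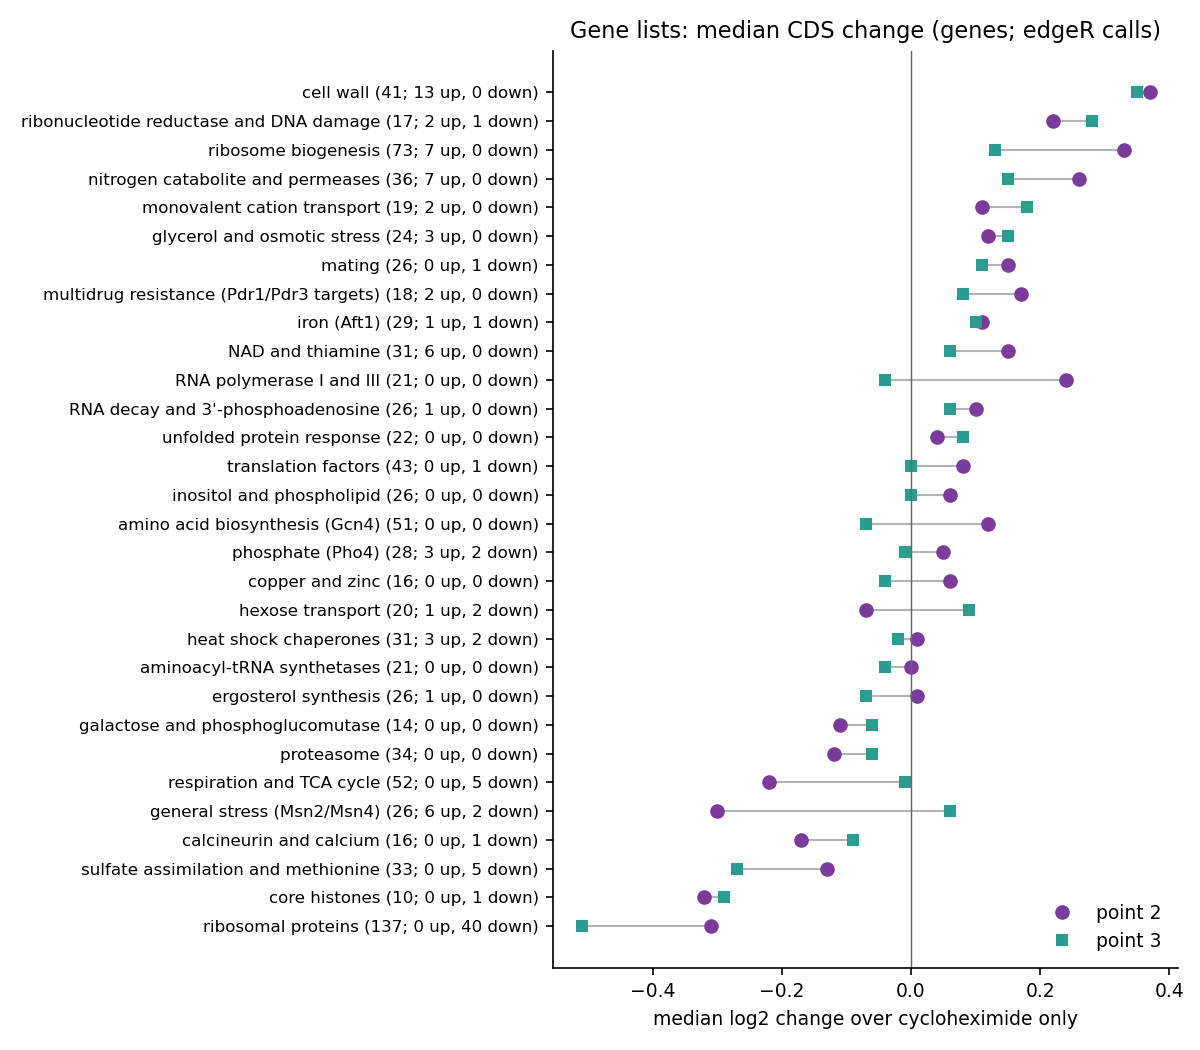
Median log2 change over cycloheximide only of 30 gene lists at point 2 (circles) and point 3 (squares), with the number of genes tested and of edgeR calls in brackets. RP genes lie at -0.31 and -0.51, core histones at -0.32 and -0.29, and the cell wall list highest at 0.37 and 0.35; both points share the cycloheximide library.

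Intron retention was measured as the density of reads in an intron over the density of reads in the CDS of its gene, each per base. After a filter of at least 5 intron and 20 CDS reads in the mean of the 3 libraries, 241 introns or groups of introns of 1 gene remained, 102 of them in RP genes and 24 in 5′ UTRs. Retention of RP introns was higher in both mixtures, and that of other introns was not. The median RP intron had a retention of 0.011 at point 2 and 0.0095 at point 3, against 0.00615 in cycloheximide only. The median log2 change of RP introns was 0.82 at point 2 and 0.61 at point 3, and that of the 139 other introns was -0.05 and -0.13. Retention was higher at both points for 95 of 102 RP introns and lower at both for 5, while for the others it was higher at both for 35 and lower at both for 56. Introns of large subunit genes, with medians of 0.77 and 0.56, and of small subunit genes, with 0.84 and 0.72, were both higher, and the difference between them was not tested.

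**Figure D5:**
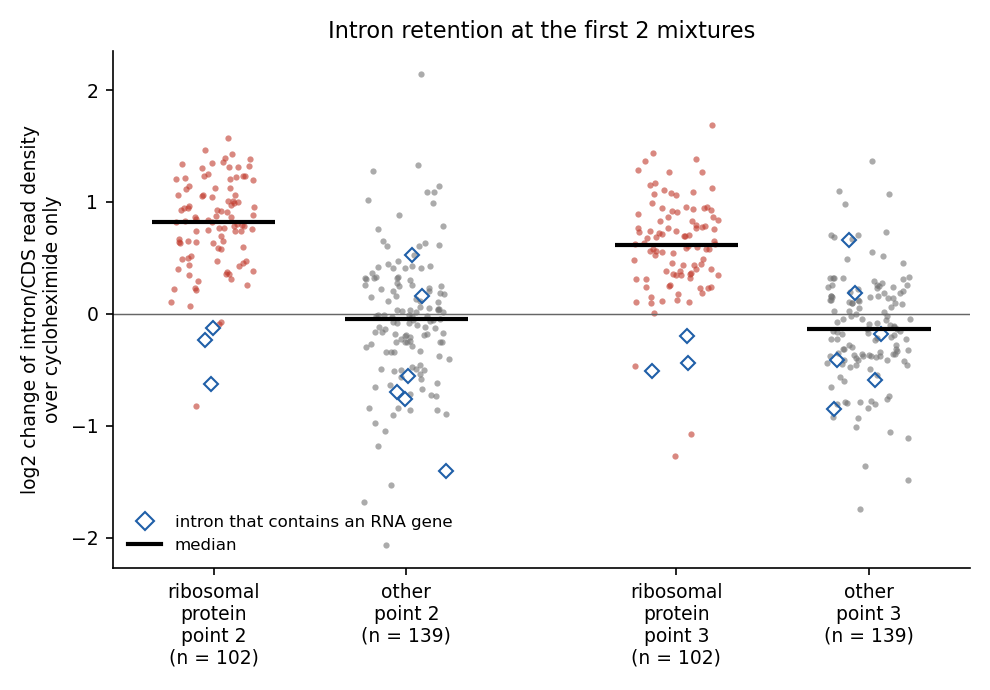
Log2 change of the intron over CDS read density in the mixture at point 2 (left) and point 3 (right), each over cycloheximide only, for 102 RP introns (red) and 139 other introns (grey); black bars are medians and open diamonds mark introns that contain an RNA gene. RP introns centre on 0.82 and 0.61, other introns on -0.05 and -0.13, and the diamonds of RP genes lie below 0.

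The ratio rose from both sides. Intron reads themselves, as CPM, changed by a median log2 value of 0.50 at point 2 and 0.08 at point 3 over the RP introns, while the CDS reads of the same genes changed by -0.32 and -0.51. Intron CPM was higher at both points for 59 of the 102 RP introns and lower at both for 14. At point 3, therefore, most of the median change lay in the CDS reads.

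A 2-fold rise of retention at both points was found for 11 introns (4.56% of 241), all of them in RP genes, and a 2-fold fall for 0 (0%). By Fisher's exact test on intron and CDS reads, which compares libraries and not conditions, 54 introns (22.4%) were higher and 7 (2.9%) lower at both points at an adjusted p under 0.05, and 52 of the 54 were RP introns, 23 of the 57 in large subunit genes and 29 of the 45 in small subunit genes. Other introns had larger counting error, with median SEs of 0.51 and 0.46 at points 2 and 3, against 0.21 and 0.21 for RP introns. A change of like size was therefore less likely to pass this test in other introns. Among the 11 with a 2-fold rise were the introns of RPL31B, RPL39, RPS4B, RPS10B, RPS0A and RPL37A and the 5′ UTR introns of RPL32, RPL29, RPS22B and RPS29B. The 11 rested on at least 23 intron reads per library, and intron CPM was higher at both points in each, by 0.28 to 1.28 on the log2 scale. RPL31B had a retention of 0.0218 at point 2 and 0.0223 at point 3, against 0.00852 in cycloheximide only (log2 changes 1.36, SE 0.32, and 1.39, SE 0.31). RPL32 had 0.00808 and 0.00843, against 0.0035. RPL39 had 0.00474 and 0.00492, against 0.00191, and RPS4B had 0.00454 and 0.00385, against 0.00173, on 31, 28 and 23 intron reads at point 2, point 3 and in cycloheximide only. RPL29 had 0.00531 and 0.00402, against 0.00179.

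RPS22B carries 2 introns that moved apart. Its 5′ UTR intron (chrXII:855878-856434) had 98 reads at point 2 and 95 at point 3, against 110 in the more deeply sequenced cycloheximide library, which gave log2 retention changes of 1.35 (SE 0.20) and 1.09 (SE 0.20). The intron in its CDS (chrXII:856575-857057), which holds the snoRNA gene SNR44, had changes of -0.24 and -0.44. RPS9A, of a copy pair of the small subunit, had retention changes of 0.86 and 0.86, and RPS9B of 0.75 and 0.60.

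Among the 99 RP introns without an RNA gene, RPL36B and RPL13B were lower at both points. RPL13B had retention changes of -0.10 and -0.46, and those of RPL36B were larger. Its intron (chrXVI:75986-76223, minus strand) had 96 reads at point 2 and 83 at point 3, against 393 in cycloheximide only, and its retention was 0.0273 and 0.0230, against 0.0484 (log2 changes -0.83, SE 0.17, and -1.07, SE 0.18). With no drug its retention was 0.0095, and at points 4 to 7 it was 0.0448, 0.0848, 0.201 and 0.325. The lowest values among the drugged cultures were thus those of the first 2 mixtures. Its copy RPL36A had changes of 0.43 and 0.58.

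Introns that contain an RNA gene, 9 in number, had median changes of -0.56 and -0.42, and 7 of them were lower at both points. NOG2, host of SNR191, had 18403 intron reads at point 2 and 21517 at point 3, against 48621 in cycloheximide only, with retention changes of -1.41 and -0.85. ASC1, host of SNR24, had changes of -0.76 and -0.60, RPL7A, host of SNR39, of -0.63 and -0.51, and EFB1, host of SNR18, of -0.70 and -0.42. Reads of the snoRNA itself enter these intron counts, so the ratio is no measure of retention there. PSP2, with changes of -0.50 and -0.49, and OM14, with -0.47 and -0.93, were the most reduced introns in other genes that hold at least 20 reads and no RNA gene, and neither passed Fisher's exact test at either point.

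The splice signals of the 11 introns were close to the yeast consensus. The first 6 bases were GTATGT in 10 of the 11 (90.9%), in 76.0% of 100 single RP introns and in 71.1% of all 232 single introns. The branch sequence TACTAAC was present in 11 of 11, in 95.0% of RP introns and in 84.9% of all. Its median distance to the intron end was 37.0 bases in the 11 and 37.0 bases in RP introns. The intron starts printed next, from the R64 reference of RefSeq, are those of RPL31B and RPL39 among the introns with the clearest change, of the RPS22B 5′ UTR intron, of RPL29 as the exception among the 11, and of RPL36B, which moved the other way, with the 5′ splice site in capitals.
RPL31B, chrXII:931669-931698, minus strand: GTATGTcgaaattagcgttgtctttacgtg
RPL39, chrX:75939-75968: GTATGTtagaaagatattataaatcccagt
RPS22B, chrXII:855878-855907: GTATGTggacgaggtgtggtaagatctccg
RPL29, chrVI:223742-223771, minus strand: GTACGTtatattatcatgaagtccccattt
RPL36B, chrXVI:76194-76223, minus strand: GTATGTttacctgaactaatgaactgtaga

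RPL36B shares its 6-base 5′ splice site with the introns that rose. In libraries that took no part in this comparison, the 11 introns had log2 retention changes of at least 2.21 between LiCl only and no drug, and all RP introns a median of 2.77, against 0.93 for other introns. The median RP retention was 0.00713 with no drug, and 0.00615, 0.011, 0.0095, 0.0126, 0.0175, 0.0311 and 0.0546 at points 1 to 7. Points 2 and 3 thus lay above cycloheximide only and below every later point, and 75 of the 102 RP introns were lower at point 3 than at point 2.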

How the data were processed

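The authors deposited counts of reads per CDS, per CDS intron and per 5′ UTR intron, made with TopHat on the R64 genome and featureCounts 1.6.2, per the labels and the file headers, without strand, with reads that match several places counted at each place and reads over 2 features counted for each. These raw counts, 13693401 to 28042336 per library, were scaled here by TMM (edgeR 4.0.16) to CPM. The log2 changes used a pseudocount of 0.5. Genes with a mean of at least 20 counts over the 3 libraries were kept. Mitochondrial features were left out. edgeR's quasi-likelihood test with Benjamini-Hochberg adjustment was fitted over all genes, and its functions were tested on simulated data. DESeq2 1.42.0 was an alternative. Retention ratios were tested by Fisher's exact test (scipy). Sequences and gene names came from RefSeq: 6665 of 6669 nuclear CDS began with ATG at the deposited coordinates. The named genes were up to 12 risen and 12 fallen with a symbol, at least 100 counts, no overlapping CDS and at least 80% unique 50-base windows, which gave 11 and 2, up to 4 called genes of each list, and 6 introns each way; the other risen and fallen genes, and further introns and list members, were named after their values were seen. The comparison, the lists and the tests were chosen with earlier results of these data known. Depth limits low counts: intervals cover counting error only. The values of 1 intron are not reported here.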

Additional observations from a re-analysis of the deposited data

How the results depend on the processing

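The counts of risen and fallen genes were the same under DESeq2 size factors (27 and 8). With a pseudocount of 5 they were 24 and 8, and with a mean of at least 100 counts 21 and 8. Under total CDS counts fewer rose and more fell (21 and 11). There YLL053C, NQM1, NFG1, PRY1, NCA3 and AQY2 missed the limit for a rise. Without the rDNA, a setting chosen after seeing the data, 24 rose and 8 fell. At 1.5-fold the counts were 87 and 70. With only unique CDS free of overlap 15 genes rose, since 12 of the 27 were not tested. Without a filter 40 rose and 20 fell. DESeq2's Wald test called 24 genes higher and 48 lower of 1180 with an adjusted p, against 163 and 219 in edgeR; the cause was not tested. Median retention changes over all introns, 0.31 and 0.19, were 0.47 and 0.32 with at least 20 intron counts, 0.36 at point 2 with a pseudocount of 2, and at point 3 were 0.16 without the intron filter and 0.21 without introns that contain an RNA gene. Medians of RP introns stayed within 0.82 to 0.83 and 0.61 to 0.63. Fisher's exact test gave 54 introns higher and 7 lower at both points, against 11 and 0 by fold, and without the intron filter 15 rose and 6 fell 2-fold. Scaling by total CDS counts moved the median of all genes by -0.08 and of RP genes to -0.39 and -0.58. No paired analysis was possible because each condition has 1 library. Counts as low as 23 intron reads limit single introns.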
